A study of Mus musculus with 14 samples.

Results

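The 9 genes described here, Syne1, Syne2, Syne3, Sun1, Sun2, Lmna, Lmnb1, Lmnb2 and Emd, encode the LINC complex (linker of nucleoskeleton and cytoskeleton) and the nuclear lamina it is anchored to. They are 9 of the 54532 genes in the deposited count table and were found there by gene name. The set was built around Syne1, which was selected on its measured difference between EC-Myc OE and CT mice on western diet (WD) in these same libraries, and the other 8 genes were named as its partners. Values of that comparison are therefore given for these genes as a description, and counts of genes past a threshold in it stand only beside those of all genes, with nothing read from them. All 9 genes passed the filter on low counts, which left 15458 genes.

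In a LINC complex, nesprins in the outer nuclear membrane reach across the perinuclear space with a short KASH domain and bind SUN proteins of the inner membrane, which in turn bind the lamins beneath. The long nesprin tails hold actin, microtubule motors or intermediate filaments, so that the complex couples the nucleus to the cytoskeleton. Skeletal muscle fibres are syncytia in which nesprins and SUN proteins keep the nuclei spaced along the fibre and gathered beneath the neuromuscular junction, and inherited changes in lamin A/C, emerin and several nesprins cause muscular dystrophies of the Emery-Dreifuss type.

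The libraries were made from poly-T selected RNA of skeletal muscle of male FVB/N mice. EC-Myc OE mice (OE) carried the Cdh5-tTA driver and a tetO-MYC transgene, so that human MYC was produced in endothelial cells once doxycycline had been taken away between 4 and 6 weeks of age. CT littermates carried tetO-MYC without the tTA driver, were taken off doxycycline in the same way and shared the strain. Mice of each genotype were kept for 20 weeks on control diet (CTD) or on WD, a diet rich in fat, by the labels, which gave 3 CT-CTD, 3 CT-WD, 4 OE-CTD and 4 OE-WD libraries. A shorter time on diet is stated where the study describes the muscle transcriptome, so the duration is uncertain. The driver acts in endothelial cells, while the RNA came from muscle tissue with all its cell types. The study's methods name soleus and gastrocnemius as the muscles, the labels do not say which a library came from, and the age at collection is not given in the sources used here. Nor do the labels say whether each library is a separate animal. The sample codes of OE-CTD 1, 2 and 3 end in the same number, as do those of all OE-WD libraries. Those of CT-CTD 1 and CT-WD 1 are neighbouring numbers, apart from the run of the other CT libraries, and what the numbers mark is not given. The libraries were treated as replicates, so p-values measure the spread between them, which may in part be technical. The group sizes in the study's figure legend follow diet, whereas in the labels they follow genotype. The labels were kept, and an exchange of CT-WD with OE-CTD would turn the genotype comparisons on each diet into diet comparisons. The study names Zbtb16, Acsl3, Rabif and Rrad for its comparison of OE-WD with CT-WD. By the labels, these genes changed on the log2 scale by -0.53, 0.17, -0.21 and -0.55 between OE-WD and CT-WD, and by 1.23, 0.65, 1.03 and -0.65 between OE-WD and OE-CTD, where Zbtb16 was past the threshold of a fold over 1.5 with an adjusted p under 0.05. The assignment of CT-WD and OE-CTD is thus in serious doubt, and which one is right is not known. Each genotype or diet comparison in the following, those of Syne1 included, is one between the groups as labelled, and after an exchange the genotype differences would be diet differences and the diet comparisons genotype comparisons. Human MYC itself was not measured from these files.

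The libraries held between 21833839 and 28519159 counts. Levels are given as counts-per-million (CPM) of a library. All 8 muscle fibre markers were detected, as the tissue label says, with Myh4 the most abundant at 49000 CPM. Libraries OE-CTD 4 and OE-WD 4 stood apart from the rest on the second principal component of log2 CPM (-47.6 and -28.9, with all others between -8.69 and 20.35), and had the highest share of mitochondrial counts, 14.9% and 14.5%. CT-CTD 1 and CT-WD 1 lay away from the other CT libraries on the first component, at -0.15 and 20.3, where the other CT libraries lay between -47.0 and -33.05. Results in which they stand apart are given with and without them.

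Compared per length, as the deposited FPKM (fragments scaled to gene length and library size), the genes spanned a wide range. Over all 14 libraries Sun2 was highest at a mean of 40.7 FPKM, followed by Lmna at 24.1, Emd at 13.5 and Sun1 at 7.49. Lmnb1 (2.88), Syne1 (2.32), Lmnb2 (1.71), Syne2 (0.951) and Syne3 (0.3045) formed the lower part of the order. The SUN genes and Lmna thus had more FPKM than any nesprin gene, with Sun1 nearest to Syne1. The order of the upper 4 genes was the same in each group, and no library of one of them reached the level of the next within a group. Lower down, Syne1 was the gene that changed place. It ranked 5th in CT-CTD at 3.33 FPKM and in CT-WD at 3.23 FPKM, 7th in OE-CTD at 1.55 and 6th in OE-WD at 1.65. In CT-CTD its range overlapped that of Lmnb1, although Syne1 was the higher gene in each library. In both OE groups its range overlapped that of Lmnb2, with neither gene higher in every library. Differences in level between genes were not tested. FPKM of Syne1 and Syne2 divide by all annotated exons (40491 and 26726 bases), and the level of a shorter isoform would be understated.

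**Figure D1:**
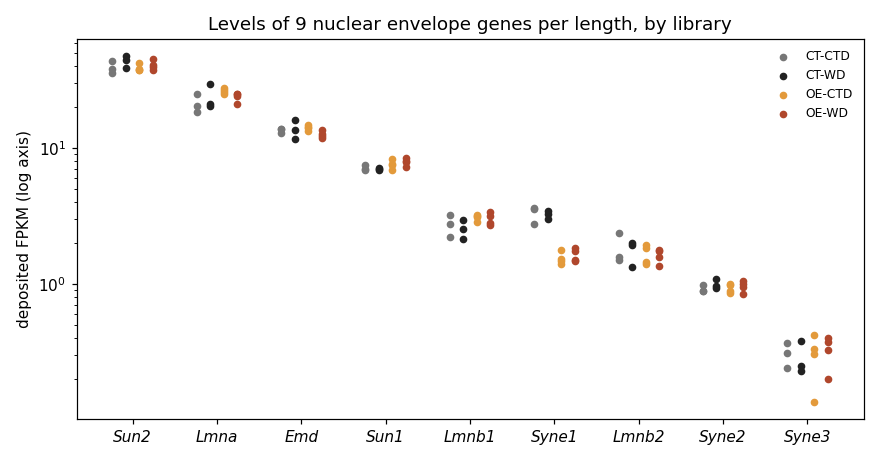
FPKM of the 9 genes in each of the 14 libraries on a log axis, with points for libraries, coloured by group. Sun2 lies highest at a mean of 40.7 and Syne3 lowest at 0.3045, and Syne1 is the gene whose OE libraries (1.415 to 1.85) all lie below its CT libraries (2.79 to 3.60).

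Syne1 encodes nesprin-1, a giant KASH protein that binds actin at its far end and recruits motor proteins and centrosomal proteins to the surface of muscle nuclei. The gene lies on the minus strand of chromosome 10, at 5020917 to 5551482 (GRCm38). In CT-CTD replicates 1 to 3 it was at 104, 132.5 and 134 CPM after TMM normalisation, and in CT-WD at 122, 111 and 127 CPM. In OE-CTD replicates 1 to 4 it was at 52.7, 57.3, 55.25 and 64.8 CPM, and in OE-WD at 68.7, 55.1, 65.6 and 55.1 CPM. Every OE library lay below every CT library, on either diet, and the libraries of the same genotype overlapped between diets. The raw counts behind these levels were between 1269 and 3384. Group means were 124 ± 16.9 CPM (SD, n = 3) in CT-CTD, 119.9 ± 8.31 CPM (SD, n = 3) in CT-WD, 57.5 ± 5.19 CPM (SD, n = 4) in OE-CTD and 61.1 ± 7.08 CPM (SD, n = 4) in OE-WD.

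Between OE-WD and CT-WD, the comparison that had singled it out, the log2 fold change of Syne1 was -0.97 (SE 0.11). The comparison on control diet uses other libraries, although the fit takes the spread of a gene from all 14. There Syne1 fell by 53.5% in OE-CTD, a log2 fold change of -1.10 (SE 0.11), with an adjusted p of 0.000575 in edgeR, the lowest p of all genes tested, and all 4 OE-CTD libraries below all 3 CT-CTD libraries. With the libraries of CT-CTD and OE-CTD fitted alone, the adjusted p was 0.000735. This result was known when the genes were chosen and is no independent support for the choice. The fold change was -1.17 without OE-CTD 4 and OE-WD 4 (adjusted p 0.0013 in edgeR) and -1.21 without CT-CTD 1 and CT-WD 1 (adjusted p 0.000132 in edgeR), and it was past the threshold in all 16 other settings tried, with adjusted p between 1.72e-15 and 0.00578. Between OE-WD and CT-WD it was -0.93 and -0.95 with the same libraries left out.

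Diet was compared within each genotype. Syne1 differed by -0.04 on the log2 scale (SE 0.118, adjusted p 0.97 in edgeR) between CT-WD and CT-CTD and by 0.09 (SE 0.103, adjusted p 1.0) between OE-WD and OE-CTD. The difference between the diet responses of the genotypes was 0.13 (SE 0.157), which is a description, since it contains the values on which Syne1 was selected.

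**Figure D2:**
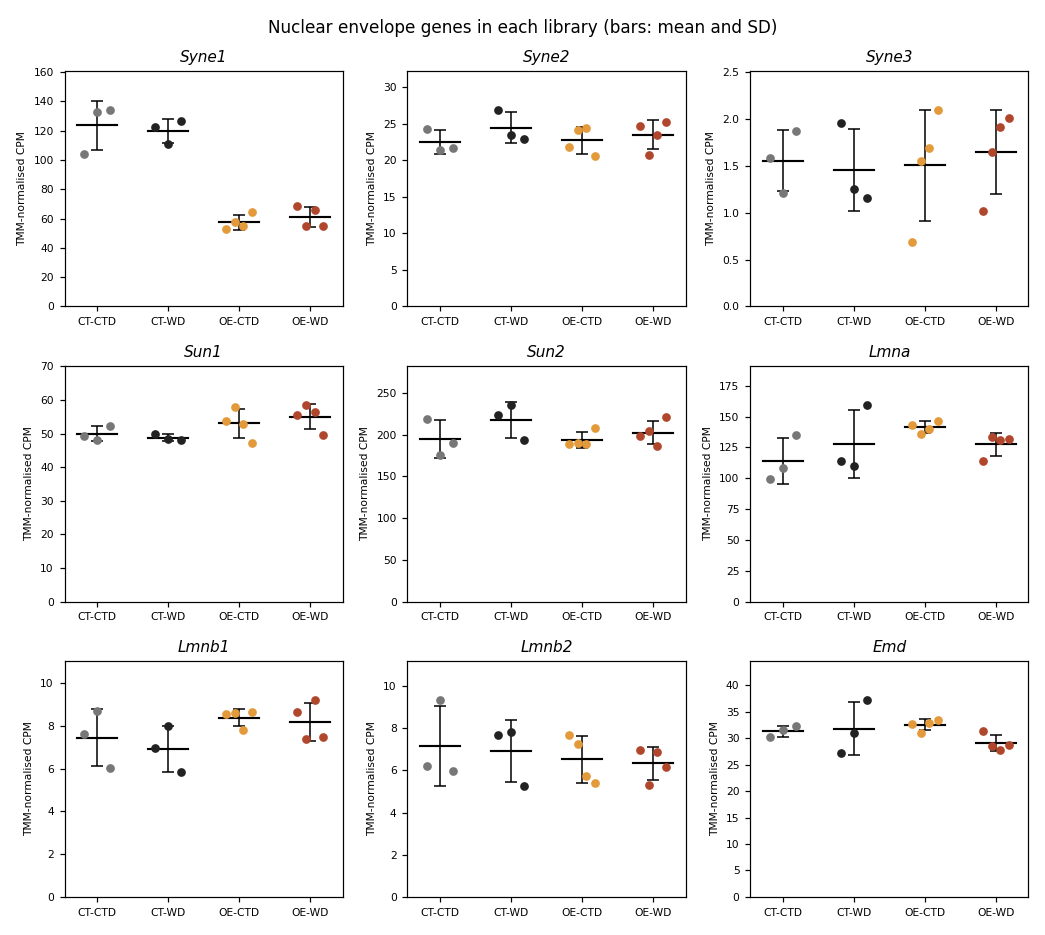
TMM-normalised CPM of each gene in every library of CT-CTD, CT-WD, OE-CTD and OE-WD, on linear axes from 0, with horizontal lines for group means and bars for the SD. Syne1 lies between 104 and 134 CPM in CT and between 52.7 and 68.7 CPM in OE. The groups of the other genes overlap except Lmna of OE-CTD against CT-CTD and against OE-WD. How common such splits are among all genes was not counted.

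Levels of marker genes moved with genotype beside Syne1. In bulk muscle, fewer cells of a type and less RNA per cell cannot be told apart. The 8 endothelial markers, all detected and led by Cdh5 at 92.9 CPM, summed to 320, 325 and 336 CPM in CT-CTD and 383, 332 and 348 CPM in CT-WD. In OE-CTD they summed to 416, 413, 392 and 374 CPM, and in OE-WD to 415, 439, 427 and 433 CPM. The OE libraries lay above the CT libraries of the same diet, in the direction opposite to Syne1, at 1.22 times the CT mean on CTD and 1.21 times on WD. On CTD all 8 markers were higher, and on WD Cldn5 (-0.31) and Esam (-0.17), named after their values were seen, were lower. No endothelial marker was past the threshold in edgeR or DESeq2. At an unadjusted p under 0.05, 5 of 8 were higher on either diet. Of all 15458 genes, 1426 were higher at that limit on CTD and 1304 on WD. In either direction, 15.9% and 16.9% of all genes passed it. Tek on CTD (0.52, adjusted p 0.0232) and Cdh5 on WD (0.46, adjusted p 0.0322), also named after their values were seen, passed the limit on adjusted p in edgeR but not that on fold.

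The 6 fibroblast markers, led by Col1a2 at 268 CPM, summed to 553, 483.5 and 397 CPM in CT-CTD, and to 1339, 411 and 403 CPM in CT-WD. OE-CTD libraries summed to 1216, 1447, 1312 and 811 CPM and OE-WD libraries to 917, 2243, 1230.0 and 972 CPM. The genotypes did not overlap on CTD, at a ratio of 2.5, but did on WD because of CT-WD 1, at a ratio of 1.87, or 3.29 without that library, when they no longer overlapped. The 6 macrophage markers, led by Csf1r at 13.4 CPM, summed to 42.0, 28.2 and 21.96 CPM in CT-CTD and to 69.9, 33.2 and 28.7 CPM in CT-WD. In OE-CTD they summed to 46.5, 56.5, 70.95 and 53.4 CPM, and in OE-WD to 41.9, 75.5, 45.9 and 55.0 CPM. Again the genotypes were apart on CTD, at a ratio of 1.85, and overlapped on WD, at a ratio of 1.24, or 1.76 and without overlap when CT-WD 1 was left out. No fibroblast or macrophage marker was past the threshold in edgeR, though all 6 of each list were higher at an unadjusted p under 0.05 on CTD. On WD 3 of 6 fibroblast markers and 0 of 6 macrophage markers were higher at that limit. Of all 15458 genes, 1426 on CTD and 1304 on WD were higher at it, and 15.9% and 16.9% passed it in either direction. On CTD DESeq2 placed Pdgfra, C1qa, C1qb and Cd68 past the threshold. These genes were named after their values were seen. No marker of these 3 lists was at 0. The part of these cell type levels in the Syne1 result was not tested.

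Summed levels of the remaining lists overlapped between genotypes over all libraries. The summed muscle fibre list stood at 0.964 of CT on CTD and 0.966 on WD, and the slow fibre list at 1.19 and 1.12. The neuromuscular junction list, where nesprin-1 is enriched around the nuclei, stood at 0.939 and 0.903. The median log2 fold change of the slow fibre list was 0.241 on CTD and -0.0295 on WD. Of its 8 genes, 3 and 2 were higher at an unadjusted p under 0.05, and 0 were past the threshold. Among all 15458 genes, 1426 and 1304 were higher at that limit, and 15.9% and 16.9% passed it in either direction. On CTD and WD the ratios of OE to CT were 1.03 and 1.01 for smooth muscle, 1.0 and 0.64 for satellite cells, 1.09 and 1.87 for adipocytes, 1.15 and 1.14 for Schwann cells, and 1.35 and 1.68 for cycling cells, and for each the groups overlapped. Some of these overlaps rested on the libraries that stand apart. Without OE-CTD 4, the muscle fibre sum of every OE-CTD library lay below CT-CTD, at a ratio of 0.887, while without OE-WD 4 the groups on WD still overlapped (0.893). Without CT-CTD 1 and CT-WD 1, the neuromuscular junction sums of OE lay below CT on both diets, the direction of Syne1, at ratios of 0.877 and 0.85. Without CT-WD 1, OE-WD lay below CT-WD for satellite cells (0.545) and above it for adipocytes (3.96), and the ratio for cycling cells rose to 2.64, still with overlap. Single genes moved within these sums. In the neuromuscular junction list, the kinase gene Musk changed by -0.99 on CTD (SE 0.342, adjusted p 0.153 in edgeR) and by -0.93 on WD, where Etv5 changed the other way by 0.45. Chrnb1, at 44.0 CPM the most abundant gene of the list, changed by -0.29 on CTD and by -0.44 on WD. There 2 of 10 were lower and 1 higher at an unadjusted p under 0.05, beside 16.9% of all genes. The list median was 0.061 on CTD and 0.0445 on WD. Sdc4, at 37.5 CPM the most abundant gene of the satellite cell list, changed by -0.72 on WD, where the more specific marker Pax7 changed by 0.61. The other genes of that list changed there by -0.33 (Calcr), -0.16 (Myf5) and 0.15 (Chrdl2), and the list median was -0.161. Lep changed by 1.95 on CTD, where the other adipocyte genes were lower, and by 2.55 on WD. None of these was past the threshold in edgeR, whereas DESeq2 placed Sdc4 and Lep past it between OE-WD and CT-WD, and Sdc4 also between CT-WD and CT-CTD. Musk, Chrnb1, Etv5, the satellite cell genes and Lep were named after their values were seen.

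Gene-level counts pool every transcript of Syne1. GENCODE lists 9 of them, among which Syne1-205, with 146 exons and 27908 bases, is the longest, and Syne1-202, with 17 exons and 3443 bases, covers the 3′ end alone. Which of them fell could not be read from the counts. Genes annotated within Syne1 held few reads, with Gm10097 highest at a mean of 0.0483 CPM. The overlapping genes of the other members reached at most 0.0655 CPM (Gm16575, within Sun2). What overlap did to the counts of the members was not tested. The strand setting of the counting is not given in the sources used here.

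Promoters of Syne1 are shown because it was the member past the threshold, at the start of Syne1-201, close to that of the longest transcript Syne1-205, and at that of Syne1-202, which lies far inside the gene. Syne1-203 starts further upstream, where no window was available. RefSeq windows on GRCm38.p6 run from 250 bases before to 50 after a start, and 13 of them matched 8 of the members. They were searched for CACGTG, the E-box that c-Myc binds with Max, and for CAGCTG, another E-box, each of which reads the same on both strands. The windows below are chr10:5550643-5550942 and chr10:5069014-5069313, both on the minus strand and written 5′ to 3′, with CAGCTG in capitals.
Syne1-201 start: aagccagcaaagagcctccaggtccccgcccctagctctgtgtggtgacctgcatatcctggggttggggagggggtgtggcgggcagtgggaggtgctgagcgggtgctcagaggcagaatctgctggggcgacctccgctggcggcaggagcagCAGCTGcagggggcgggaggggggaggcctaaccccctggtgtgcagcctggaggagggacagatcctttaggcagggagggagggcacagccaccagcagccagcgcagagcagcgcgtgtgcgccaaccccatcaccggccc
Syne1-202 start: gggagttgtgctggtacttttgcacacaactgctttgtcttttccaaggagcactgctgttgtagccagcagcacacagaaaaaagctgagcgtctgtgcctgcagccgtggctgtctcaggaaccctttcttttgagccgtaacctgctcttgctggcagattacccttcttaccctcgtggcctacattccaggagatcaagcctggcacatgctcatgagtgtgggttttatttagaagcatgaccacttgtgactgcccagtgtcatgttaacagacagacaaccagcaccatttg
CACGTG was in 0 of the 13 windows and in 2349 (7.15%) of all 32851 windows. CAGCTG was in 2 of 13, the Syne1-201 window above and the window of Syne2, and in 5355 (16.3%) of all windows. A match is a run of letters and says nothing of binding, and these motifs were picked after the values were seen.

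The genes around Syne1 were compared with it. Of 12 other tested genes within 1 Mb, 0 were past the threshold between OE-WD and CT-WD in edgeR (0.563% of all genes) and 0 in DESeq2. At an unadjusted p under 0.05 in edgeR there were 0 (16.9% of all genes), and log2 fold changes lay between -0.23 and 0.785. Between OE-CTD and CT-CTD the changes ranged from -0.57 to 1.30, with 1 gene past the threshold by either tool (Akap12; 1.91% of all genes) and 2 at an unadjusted p under 0.05, a share near the 15.9% of all genes (Akap12 and the long noncoding RNA Gm21781, at -0.48). The nearest neighbours on either side, Esr1 at 15303 bases and Myct1 at 42293 bases, changed by -0.06 and 0.16 between OE-CTD and CT-CTD, and Esr1 had no steady sign when libraries were left out. Akap12, which encodes a kinase anchoring protein, lay at 10.1, 9.46 and 12.1 CPM in CT-CTD and at 15.7, 20.5, 37.2 and 30.4 CPM in OE-CTD. All OE-CTD libraries exceeded all CT-CTD libraries, a log2 fold change of 1.30 (SE 0.255, adjusted p 0.0163 in edgeR), opposite to Syne1. The call for Akap12 was lost with a replicate block (adjusted p 0.0842) and without CT-CTD 2 (0.0838), CT-CTD 3 (0.0603) or OE-CTD 3 (0.0501), in a range from 1.18e-05 to 0.0842. Akap12, Gm21781, Esr1 and Myct1 were chosen after their values were seen.

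**Figure D3:**
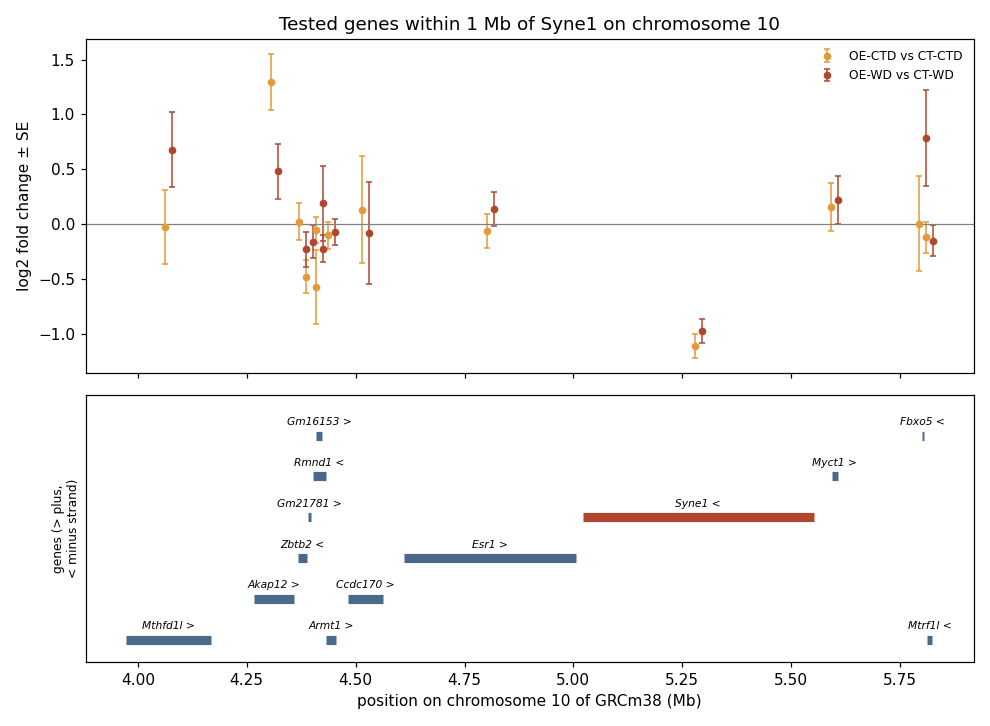
Log2 fold change with its SE for the tested genes within 1 Mb of Syne1 on chromosome 10 (GRCm38), above their positions in Mb. Syne1 lies lowest in both genotype comparisons (-1.10 and -0.97), and the other genes lie between -0.57 and 1.30.

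Genes whose log2 CPM followed that of Syne1 most closely over the 14 libraries, among 12746 tested genes at a mean of at least 1 CPM, were Spns2, Asrgl1, Rab12, Ivns1abp, Neto2 and Zranb3. Their Pearson r was between 0.936 and 0.958 and their Spearman rho between 0.82 and 0.943, but Syne1 splits the libraries by genotype, so that r mostly measures the split. Within the 6 CT libraries r was between 0.403 (Zranb3) and 0.718 (Neto2), and within the 8 OE libraries between 0.364 (Rab12) and 0.861 (Asrgl1). Spns2, a sphingosine 1-phosphate transporter, had 86.0 to 156 CPM in CT and 36.9 to 48.75 CPM in OE, and overlaps Mybbp1a, so that reads could be shared. Asrgl1 had 65.0 to 76.5 CPM in CT and 53.0 to 60.1 CPM in OE, a smaller step without overlap. None of the other members came close, with r between -0.59 (Sun1) and 0.244 (Lmnb2) over the same libraries.

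The remaining nesprins were compared in the same way. Syne2 encodes nesprin-2, the close relative of nesprin-1 that also binds actin and motors, and lies on chromosome 12 at 75818134 to 76110926. It ranged from 21.4 to 26.9 CPM in CT and from 20.6 to 25.2 CPM in OE, with 403 to 743 counts a library. The groups overlapped, and Syne2 changed by 0.016 between OE-CTD and CT-CTD (SE 0.0988, adjusted p 0.962 in edgeR), where Syne1 changed by -1.10. Between OE-WD and CT-WD its log2 fold change was -0.057. Syne3 encodes nesprin-3, which links to plectin and intermediate filaments, and lies on the same chromosome at 104929933 to 105009809. It was the lowest of the 9 genes, at 0.690 to 2.09 CPM from 18 to 54 counts, and its groups overlapped throughout. With a group SD of up to 0.59 CPM around means near 1.5, the change of -0.057 in OE-CTD (SE 0.349) leaves a wide margin. What size of difference in Syne3 could be detected was not tested. The range of Syne3 over the settings, -0.30 to 0.19, included both signs.

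Sun1 and Sun2 encode the SUN proteins of the inner membrane that take up the KASH domains. Sun1 lies on chromosome 5 at 139200637 to 139249840. It was at 49.3, 48.2 and 52.4 CPM in CT-CTD, 49.9, 48.3 and 48.1 CPM in CT-WD, 53.75, 58.0, 52.9 and 47.4 CPM in OE-CTD and 55.6, 58.5, 56.6 and 49.7 CPM in OE-WD. Most OE libraries were above CT, yet OE-CTD 4 lay below every CT library and OE-WD 4 within the CT range. The change was 0.09 between OE-CTD and CT-CTD (SE 0.0811, adjusted p 0.67 in edgeR) and, as a description, 0.18 between OE-WD and CT-WD. Without OE-CTD 4 and OE-WD 4 it was 0.14 (adjusted p 0.277) and 0.22.

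Sun2 lies on chromosome 15 at 79724070 to 79742536 and was at 219, 176 and 189.7 CPM in CT-CTD and 224, 235 and 193 CPM in CT-WD. In OE-CTD it was at 188, 189.7, 189 and 208 CPM, and in OE-WD at 198, 204, 187 and 221 CPM. All groups overlapped, and 3 OE-CTD libraries lay close together with OE-CTD 4 above them. Sun2 changed by -0.0075 between OE-CTD and CT-CTD (SE 0.0947, adjusted p 0.981 in edgeR), with a sign that turned with upper quartile scaling, and by 0.16 between CT-WD and CT-CTD (SE 0.101, adjusted p 0.836).

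The balance of the SUN genes was compared as the ratio of Sun2 to Sun1 in FPKM. It was 6.23, 5.11 and 5.08 in CT-CTD, 6.28, 6.83 and 5.64 in CT-WD and 4.91, 4.58, 5.01 and 6.16 in OE-CTD. OE-WD libraries had ratios of 4.998, 4.895, 4.625 and 6.22. The highest OE ratios were those of OE-CTD 4 and OE-WD 4, and OE-WD 4 was the only OE-WD library within the CT-WD range. The groups of every comparison overlapped. In all 3 pairs of CT libraries with the same number the ratio was higher on WD. So few pairs cannot give a paired p under 0.05. Exact permutation tests of the log2 ratio, two-sided and without pairing, gave p of 0.457 for OE-CTD against CT-CTD (smallest possible 0.0286). They gave 0.2 for CT-WD against CT-CTD (smallest possible 0.1) and 0.886 for OE-WD against OE-CTD. Adjusted p over 8 ratio comparisons were 0.731, 0.731 and 0.886. The log2 difference between OE-CTD and CT-CTD was -0.086, or -0.17 without OE-CTD 4.

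Lmna encodes lamins A and C, the A-type lamins that stiffen the nucleus in muscle, and lies on chromosome 3 at 88480147 to 88509956. It was at 99.1, 109 and 135 CPM in CT-CTD and at 114, 109.6 and 159 CPM in CT-WD. In OE-CTD it was at 143.5, 136, 140.3 and 147 CPM, and in OE-WD at 114, 133, 131 and 132 CPM. The OE-CTD libraries were tightly grouped and lay above every CT-CTD library and every OE-WD library, although CT-CTD 3 came close to them, while OE-WD and CT-WD overlapped. Its log2 change in OE-CTD against CT-CTD was 0.31 (SE 0.127), with an adjusted p of 0.24 in edgeR, which does not pass the threshold. Lmna lay above the CT-CTD range in 4 of 4 OE-CTD libraries. The share of all genes whose groups do not overlap was not counted, so this split is a description. Over the settings the change stayed between 0.21 and 0.45 with adjusted p between 0.145 and 0.504. Between OE-WD and CT-WD the change of Lmna was -0.0017, with both signs over the settings (-0.10 to 0.19). It was 0.16 between CT-WD and CT-CTD (SE 0.135, adjusted p 0.878), and -0.15 between OE-WD and OE-CTD (SE 0.116, adjusted p 1.0). The diet by genotype interaction of Lmna was -0.31 (SE 0.178, adjusted p 0.857), the furthest from 0 among the 9 genes in this fit, and was not past the threshold. Over the settings it ranged from -0.45 to -0.12, and that of Syne3 from -0.020 to 0.50.

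The B-type lamins stay farnesylated and membrane bound and are typically low in muscle fibres. Lmnb1 ranged from 5.82 to 8.70 CPM in CT and from 7.40 to 9.19 CPM in OE, with 131 to 260 counts a library. Its groups overlapped, with a change of 0.17 between OE-CTD and CT-CTD (SE 0.145, adjusted p 0.627 in edgeR). Lmnb2, on chromosome 10 at 80901203 to 80918245, ranged from 5.25 to 9.33 CPM in CT and from 5.33 to 7.71 CPM in OE. Its change of -0.13 (SE 0.195, adjusted p 0.813) took the other sign when CT-CTD 2, its highest library, was left out (0.11).

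The ratio of Lmna to the sum of Lmnb1 and Lmnb2 in FPKM compares A-type with B-type lamins. It was 4.23, 3.64 and 6.74 in CT-CTD, 4.72, 4.16 and 8.55 in CT-WD and 5.25, 5.07, 6.05 and 6.02 in OE-CTD. In OE-WD it was 4.29, 6.09, 4.76 and 5.72. Replicate 3 was the highest in both CT groups, and the groups overlapped. In all 3 pairs of CT libraries with the same number the ratio was higher on WD, again too few pairs for a paired p under 0.05. Exact permutation tests, two-sided and without pairing, gave p of 0.343 for OE-CTD against CT-CTD and 0.6 for CT-WD against CT-CTD. They gave 0.457 for OE-WD against OE-CTD, and the adjusted p were 0.731, 0.8 and 0.731.

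Emd encodes emerin, a LEM-domain protein of the inner membrane that binds lamin A and the chromatin protein BAF, and lies on the X chromosome at 74254687 to 74261548. It was at 30.2, 31.5 and 32.3 CPM in CT-CTD, 27.3, 31.0 and 37.2 CPM in CT-WD, 32.7, 31.05, 32.9 and 33.4 CPM in OE-CTD and 31.4, 28.48, 27.7 and 28.7 CPM in OE-WD. CT-WD was the widest group, and OE-WD lay low, with only OE-WD 1 inside the OE-CTD range. Emd changed by -0.16 between OE-WD and OE-CTD (SE 0.0867, adjusted p 1.0 in edgeR) and by 0.054 between OE-CTD and CT-CTD (SE 0.0937, adjusted p 0.841).

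Counted over the set, 1 of 9 genes, Syne1, was past the threshold between OE-CTD and CT-CTD, where 295 genes (1.91%) were past it among all genes tested, 183 higher and 112 lower. At an unadjusted p under 0.05 there were 2 of 9, Syne1 lower and Lmna higher, where 15.9% of all genes were. Lmna was not among them without CT-CTD 1, CT-CTD 2 or OE-CTD 4, which left 1 of 9. The 295 genes became between 64 and 309 when 1 library was left out, with 64 without CT-CTD 3, 99 without CT-CTD 2, 102 without OE-CTD 2 or OE-CTD 3 and 170.0 without OE-CTD 1. The majority turned to lower genes in some fits, with 29 of the 64 higher without CT-CTD 3, 46 of the 99 without CT-CTD 2 and 3 of 14 with the replicate block. Between OE-WD and CT-WD the count was 1 of 9, Syne1 again, beside 0.563% of all genes, and 2 of 9 at an unadjusted p under 0.05, Syne1 and Sun1, beside 16.9%. Nothing is read from the latter pair, since that comparison chose the genes. The comparisons on CTD and WD share no library, but the fit takes the spread of a gene from all 14. The CTD result of Syne1 was known when the genes were chosen, so its count is no independent support.

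With diet, edgeR placed 0 of 9 genes past the threshold in CT (background 0.0%, with 0 genes by edgeR and 31 by DESeq2), and 0 at an unadjusted p under 0.05 (background 7.28%). In OE it placed 0 of 9 (background 0.00647%, with 1 gene by either tool) and 0 at an unadjusted p under 0.05 (background 4.2%). For the interaction the counts were 0 of 9 (background 0.0%, with 0 genes by edgeR and 9 by DESeq2) and 0 at an unadjusted p under 0.05 (background 5.92%). DESeq2 also placed 0 of the 9 genes past the threshold in each of these comparisons. With 1 library left out, 1 of 9 genes reached an unadjusted p under 0.05 in some fits. In CT that was Sun2 without CT-CTD 1 or CT-WD 3 and Lmna without CT-CTD 3. In the interaction it was Lmna without CT-CTD 3 or CT-WD 2 and Emd without CT-WD 1. With the replicate block, Lmna reached it in the interaction, and Lmna and Emd between OE-WD and OE-CTD. Emd also did so there with only the groups compared. The block placed 10 of all genes past the threshold between CT-WD and CT-CTD, with 1826 at an unadjusted p under 0.05 in place of 1125. A change past the threshold with diet was not detected in any of the 9 genes by edgeR or DESeq2, for diet as labelled.

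Other genes of the nuclear envelope came from lists. Of 6 further KASH and SUN genes, only Syne4 and Lrmp had enough counts to be tested, and Sun5 was at 0 counts. Of their 10 tests over the 5 comparisons, 0 were past the threshold in edgeR (0.0% to 1.91% of all genes by comparison) and 0 in DESeq2. In edgeR 0 had an unadjusted p under 0.05, beside 4.2% to 16.9% of all genes by comparison. Lrmp is the file's name for Irag2, a KASH protein of lymphoid cells. Of 22 partners of the lamina, all were tested and 1 was past the threshold in each genotype comparison, by edgeR and by DESeq2, where edgeR had 1.91% of all genes past it on CTD and 0.563% on WD. It was Tmpo in both, which encodes the lamina-associated polypeptide 2 family of LEM-domain proteins and lies on chromosome 10 at 91147571 to 91181315.

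Tmpo was at 81.2, 63.2 and 80.9 CPM in CT-CTD and at 72.5, 110.5 and 114 CPM in CT-WD. In OE-CTD it was at 50.6, 48.7, 53.5 and 45.9 CPM, and in OE-WD at 69.2, 56.6, 58.15 and 48.0 CPM. Each OE group lay below the CT group of its diet, and OE-WD 1 lay above CT-CTD 2. Tmpo changed by -0.60 on the log2 scale between OE-CTD and CT-CTD (SE 0.149, adjusted p 0.0456 in edgeR), with 4 of 4 OE-CTD libraries below the CT-CTD range, and between OE-WD and CT-WD it was -0.77. The log2 fold change of Tmpo on CTD stayed between -0.71 and -0.50 over 16 other settings. Its call was lost in 12 of them, every one with a library left out among them, with adjusted p between 0.00217 and 0.197. Without CT-CTD 1 and CT-WD 1 it was lost on the fold (-0.54), at an adjusted p of 0.0309 in edgeR. With library totals in place of TMM the adjusted p was 0.0937, with a replicate block 0.166 and with limma on log2(FPKM + 1) 0.0945. It was 0.112, 0.0646 and 0.197 without CT-CTD 1, 2 or 3, and 0.095, 0.124, 0.0864 and 0.0787 without OE-CTD 1, 2, 3 or 4. Between OE-WD and CT-WD the log2 fold change stayed between -0.96 and -0.66. The call was lost there in 10 of 16 other settings, with adjusted p between 0.00012 and 0.267. It was 0.127 and 0.147 without CT-WD 2 or 3, 0.104, 0.0892 and 0.0883 without OE-WD 2, 3 or 4, and 0.267 with the replicate block. The direction of Tmpo was the same in all settings of either comparison. Its change with diet in CT was 0.40 (SE 0.16, adjusted p 0.61), and its interaction was -0.18 (SE 0.212, adjusted p 0.946).

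The median log2 fold change of the lamina partners between OE-CTD and CT-CTD was -0.034, where that of all genes was -0.00070. At an unadjusted p under 0.05, 3 of 22 were lower and 0 higher on CTD, beside 15.9% of all genes, namely Tmpo, Ankle2 (-0.21), which takes part in rebuilding the envelope after mitosis, and Tmem43 (-0.23), an emerin-binding membrane protein. With diet in CT, Zmpste24, the protease that matures prelamin A, changed by -0.31 (SE 0.101, adjusted p 0.545 in edgeR), and Plpp7 by -0.30 (SE 0.139, adjusted p 0.675). On WD, OE differed from CT by -0.29 in Fnta, a subunit of the enzymes that prenylate lamins, and by -0.30 in Tmem43, neither past the threshold (adjusted p 0.0907 and 0.156). There 2 of 22 were higher and 4 lower at an unadjusted p under 0.05, beside 16.9% of all genes.

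Of 13 cytoplasmic and organising partners, which include motors, pericentriolar proteins and plectin, 0 were past the threshold in any comparison, in edgeR or in DESeq2, and 1 of 65 tests had an unadjusted p under 0.05 in edgeR. Of all genes between 4.2% and 16.9% did, by comparison. Their median was -0.054 on CTD. That test was of Akap6, the anchoring protein that nesprin-1 holds at the nuclear envelope of muscle cells, which changed by 0.31 between OE-WD and CT-WD and by -0.020 between OE-CTD and CT-CTD (SE 0.116, adjusted p 0.961).

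Of 28 nucleoporins, 27 were tested and 0 were past the threshold in any comparison, in edgeR or in DESeq2, with 8 of 135 tests at an unadjusted p under 0.05 in edgeR, beside the same 4.2% to 16.9% of all genes. On CTD, 1 was higher and 2 lower at an unadjusted p under 0.05, beside 15.9% of all genes. They were Nup62 (0.21, SE 0.0907, adjusted p 0.27), Tpr (-0.20, SE 0.076, adjusted p 0.208) and Nup210 (-0.35, SE 0.141, adjusted p 0.234). Nup210 is the pore membrane protein known for its rise in muscle differentiation. With diet in CT, Nup107 changed by -0.38 and Nup93 by -0.28, and the interaction of Nup93 was 0.44 (SE 0.157, adjusted p 0.825). The median of the nucleoporins was -0.077 on CTD.

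Syne1 has one of the longest transcripts in muscle, so 20 other genes with long transcripts were set beside it. In edgeR 0 of 20 were past the threshold in any comparison, with 7 of 100 tests at an unadjusted p under 0.05 (4.2% to 16.9% of all genes by comparison), and DESeq2 placed 1 past it, Lrp1 on CTD. Between OE-CTD and CT-CTD 1 was higher and 3 lower at an unadjusted p under 0.05 in edgeR, beside 15.9% of all genes, with a median of -0.098, where that of all genes was -0.00070. The change furthest from 0 was upward, in the endocytic receptor Lrp1 (0.81, SE 0.234, adjusted p 0.0842, range over the settings 0.00183 to 0.302), and the lower genes were Birc6 (-0.22), Herc1 (-0.38) and Mdn1 (-0.35). The giant sarcomere genes Ttn and Neb changed by -0.15 (SE 0.199, adjusted p 0.794) and -0.18. Mdn1, Ttn and Neb were named after their values were seen. The summed levels of the 20 genes overlapped between OE-CTD and CT-CTD at a ratio of 0.92, but only through OE-CTD 4. Without it every OE-CTD library lay below CT-CTD, the direction of Syne1, at 0.818. The same held for the cytoplasmic and organising partners (0.85 without OE-CTD 4). The nucleoporins no longer overlapped without OE-CTD 4 (0.929) or without CT-CTD 1 (0.927). On WD all 3 lists still overlapped without OE-WD 4, at ratios of 0.861, 0.892 and 0.98.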

How the data were processed

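The deposited counts are reads per Ensembl gene that the authors made, per the submitters' processing notes, with HISAT2 2.0.5 and featureCounts 1.5.0-p3 on mm10. The deposited FPKM were computed by the authors from these counts, gene length and a library total that was 79.93% to 97.97% of the counts. Groups came from the labels.

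Counts were fitted with edgeR 4.0.16 (TMM factors, filterByExpr, quasi-likelihood test, 1 mean per group, prior count 2) in R 4.3.3, with Benjamini-Hochberg adjustment over 15458 genes. The filter removed at most 0.0694% of a library's counts. Alternatives used DESeq2 1.42.0, limma 3.58.1 on log2(FPKM + 1), other scalings, no filter, fewer libraries and a replicate block. The block joins libraries of the same number, within a diet for genotype comparisons and within a genotype for diet and the interaction. Ratios were tested by exact permutation, two-sided, with Python 3.11.15, NumPy 2.4.6 and pandas 2.3.3, and plots drawn with Matplotlib 3.10.9. Scripts were tested on simulated data.

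Whether samples of the same number in CT-WD and CT-CTD belong together is not given, and the main fits and the permutation tests did not pair them. Their deviations correlated at 0.385, 0.123 and 0.203. With the replicate block, which does pair them, Syne1 changed by -0.036 between CT-WD and CT-CTD. Positions came from the deposited table, of which 98.3% of the genes shared with GENCODE had the same position there.

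The 9 genes and all lists were chosen with earlier results of these data known. Genes named from the nuclear envelope lists were taken from those with the lowest unadjusted p in each list and comparison, at most 3 in each. Not all of those are named, but all genes of these lists past the threshold in edgeR are. The genes most like Syne1 were the 6 with the highest Pearson r.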

Additional observations from a re-analysis of the deposited data

Results flagged for a closer look

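In each group of 4 libraries, a library was singled out when its gap to the nearest other made up most of the group's range (Dixon's test). Sun2 in OE-CTD 4, at 208.2 CPM, lay above the other OE-CTD libraries. Lmna in OE-WD 1, at 113.7 CPM, lay below the other OE-WD libraries. Lmnb1 in OE-CTD 3, at 7.792 CPM, lay below the other OE-CTD libraries. These were 3 of 22 groups tested, and chance gives about 1 in 20.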

How the results depend on the processing

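Syne1 was lower in OE-CTD than in CT-CTD and past the threshold under all 16 alternatives, and 0 of 9 genes were past it for diet or the interaction in edgeR or DESeq2 under any. Its OE-WD to CT-WD change was -0.675 with limma on log2(FPKM + 1), a scale on which low values shrink. Dropping OE-CTD 4 with OE-WD 4, or CT-CTD 1 with CT-WD 1, was chosen after seeing the data. The interaction has no fit with only the groups compared, and counts per gene length gave the same ratios as FPKM. Libraries of the same number in OE-WD and OE-CTD correlated at 0.0711, 0.138, 0.142 and 0.338, and those of different genotype at -0.23 to 0.0465. These libraries and the CT pairs may share only a number. Syne3 had the fewest counts of the 9 genes, at 18 to 54 a library. Where a value below moved or changed sign, the cause was not tested.

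Genes past the threshold between OE-WD and CT-WD, 87 in edgeR, were 308 with DESeq2, 10 with library totals without TMM, 401 with no filter on low counts, 4 with only the groups compared, 1 with the replicate block, 30 with limma, 4 without OE-CTD 4 and OE-WD 4, and 997 without CT-CTD 1 and CT-WD 1 (4204 at an unadjusted p under 0.05, against 2605). Between OE-CTD and CT-CTD, 295 became 504 with DESeq2, 157 without TMM, 570 with no filter, 14 with the replicate block, 117 with limma and 550 without CT-CTD 1 and CT-WD 1. The share of higher genes between OE-WD and CT-WD was 44.8% in edgeR, 54.9% with DESeq2 and 20.0% without TMM, and between OE-CTD and CT-CTD 62.0%, 67.7% and 50.3%. At an unadjusted p under 0.05 it was 50.1% and, without TMM, 62.1% between OE-WD and CT-WD, 57.5% and 41.3% between CT-WD and CT-CTD, and 43.5% and 61.1% for the interaction.

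Between CT-WD and CT-CTD, 0 genes past the threshold in edgeR (1125 at an unadjusted p under 0.05) became 31 with DESeq2, 88 with no filter, 10 with the replicate block and 31 without CT-CTD 1 and CT-WD 1, and the 1125 became 718 with only the groups compared and 1826 with the replicate block. Between OE-WD and OE-CTD, 1 gene became 5 with no filter and 0 without OE-CTD 4 and OE-WD 4, and 650 at an unadjusted p under 0.05 became 1113 with no filter and 1336 with the replicate block. For the interaction, 0 genes (915 at an unadjusted p under 0.05) became 9 with DESeq2, 29 with no filter, 1 with the replicate block and 1 without CT-CTD 1 and CT-WD 1, and the 915 became 1381 with no filter, 1672 with the block and 1510 without those libraries.

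Of the 9 genes, those at an unadjusted p under 0.05 between OE-WD and CT-WD were 1 in place of 2 with DESeq2, without TMM, with no filter and with only the groups compared, and between OE-CTD and CT-CTD 1 in place of 2 without either pair of libraries. Between OE-WD and OE-CTD, 0 became 1 with only the groups compared (Emd) and 2 with the replicate block (Lmna and Emd), and for the interaction 1 with the block (Lmna). Between genotypes the block joins libraries that may share only a number. Between OE-CTD and CT-CTD the block also ended the calls of Tmpo, Akap12, Spns2, Neto2 and Zranb3 (adjusted p 0.166, 0.0842, 0.057, 0.0765 and 0.0775). The log2 fold changes of Tmpo, Akap12 and Spns2 were -0.552, 1.131 and -1.596 with the block, against -0.596, 1.295 and -1.568 without it.

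Signs turned as follows on the log2 scale. Sun2 between OE-CTD and CT-CTD was 0.0020 with upper quartile scaling and 0.086 without CT-CTD 1 and CT-WD 1. Emd between CT-WD and CT-CTD was -0.023 without TMM. Between OE-WD and OE-CTD without OE-CTD 4 and OE-WD 4, Syne2 was -0.030 and Lmnb1 0.017. The interaction of Lmnb2 was 0.024 without TMM, 0.0011 with no filter, 0.0064 with limma and 0.18 without CT-CTD 1 and CT-WD 1.

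With 1 library left out at a time, genes past the threshold ranged from 4 to 905 between OE-WD and CT-WD (905 without CT-WD 1, 13 without CT-WD 2 or OE-WD 4, 7 without CT-WD 3, 6 without OE-WD 3 and 4 without OE-WD 2), from 64 to 309 between OE-CTD and CT-CTD, from 0 to 41 between CT-WD and CT-CTD (41 without CT-WD 1), from 0 to 2 between OE-WD and OE-CTD, and from 0 to 1 for the interaction. At an unadjusted p under 0.05 they ranged from 1593 to 4108 between OE-WD and CT-WD, 797 to 1913 between CT-WD and CT-CTD, 478 to 990.0 between OE-WD and OE-CTD, and 720.0 to 1697 for the interaction. Of the 9 genes, 1 to 2 were at an unadjusted p under 0.05 in each genotype comparison, and 0 to 1 between CT-WD and CT-CTD and for the interaction.

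In the same way, log2 fold changes between OE-CTD and CT-CTD ranged from -0.076 to 0.080 for Sun2, -0.022 to 0.070 for Syne2, -0.25 to 0.11 for Lmnb2, -0.25 to 0.19 for Syne3 and -0.23 to 0.056 for Esr1. Between CT-WD and CT-CTD the ranges were -0.16 to 0.019 for Syne1, -0.030 to 0.30 for Lmna, -0.060 to 0.00041 for Sun1, -0.10 to 0.12 for Emd, -0.16 to 0.19 for Lmnb2, -0.24 to 0.020 for Lmnb1 and -0.37 to 0.066 for Syne3. Between OE-WD and OE-CTD they were -0.13 to 0.040 for Lmnb2, -0.096 to 0.010 for Lmnb1 and -0.11 to 0.33 for Syne3. For the interaction they were -0.13 to 0.0011 for Syne2, -0.24 to 0.12 for Lmnb2, -0.058 to 0.20 for Lmnb1 and -0.020 to 0.50 for Syne3. The log2 ratio of Lmna to the B-type lamins ranged from -0.086 to 0.49 between CT-WD and CT-CTD, and that of Sun2 to Sun1 from -0.17 to 0.011 between OE-CTD and CT-CTD and -0.086 to 0.093 between OE-WD and OE-CTD.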
